A study of Mus musculus with 21 samples.

Results

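The 10 genes described here handle fatty acids in microglia, the resident macrophages of the brain. They are Lpl, Fabp3, Fabp5, Scd1, Scd2, Plin2, Cd36, Acsl1, Pnpla2 and Fasn, and they were chosen by name, as genes of fatty acid uptake, storage and synthesis, by a rule that uses names alone, set with earlier results of these data known. All 10 are among the 18079 genes of the table that compares ApoE knockout with wild-type microglia. By their mean over both groups, all 10 were abundant enough to be tested there. Of the 13297 genes of the table that compares rAPOE with PBS injection, 9 are from the group, and 6 of these were abundant enough to be tested. Fabp3 was not analysed in the injection table.

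Fatty acids reach a cell when lipoprotein lipase splits the triglycerides of lipoproteins outside it and receptors and binding proteins carry the released acids across the membrane and through the cytosol. Inside the cell, acyl-CoA synthetases activate them, and they are then burned in mitochondria, built into membranes or stored as triglyceride in lipid droplets, from which lipases free them again. Cells also make fatty acids from acetyl-CoA, and desaturases turn saturated into monounsaturated ones. In the brain, apolipoprotein E (ApoE) is the chief carrier of lipids between cells, and macrophages that take up lipoproteins or debris are known for filling lipid droplets.

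Per the labels, the genotype table holds 4 libraries of ApoE knockout females of the strain B6.129P2-Apoetm1Unc/J, in which Apoe was disrupted by targeting in the germ line, and 7 libraries of wild-type C57BL/6 females, none of them injected. The injection table holds 10 libraries of males of the same knockout strain, 5 after recombinant APOE protein (rAPOE) in phosphate-buffered saline (PBS) and 5 after PBS alone, so all injected animals lack their own ApoE. Mice were 12 to 18 weeks old. The injection went into the left hemisphere, microglia were isolated 16 h later, and both hemispheres were collected without a label for the side behind each library. Knockout and wild type differ in strain name as well as in Apoe, and effects of the allele and of the strain cannot be told apart. Whether each library is a mouse of its own is not labelled, and the p-values below measure only the spread among libraries, which may be technical.

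RNA was read as 3′ tags, and values are normalised counts, that is, the reads of a gene divided by a factor of its library. Knockout libraries held 4247865 to 4969287 reads over 8117 to 10479 detected genes, and wild-type libraries 2016972 to 3054976 reads over 13592 to 15248 genes. The rAPOE libraries held 857059 to 1119059 reads and the PBS libraries 704225 to 1347501. Apoe itself was at 0 to 23.1 normalised counts in the knockout libraries, against 13196 to 17163 in 6 wild-type libraries and 1011 in wild-type library 8. The same 6 wild-type libraries carried 11 to 36 Y-linked reads each although they are labelled female, and the knockout libraries and wild-type library 8 carried 0. Xist was at 1980 to 3292 in the knockout libraries, against 1127 to 1279 in those 6 wild-type libraries and 3291 in library 8. PBS library 5 and rAPOE library 5 are labelled male but held Xist and no Y-linked read. Differences of the 10 genes are therefore given with and without wild-type library 8, and in the injection table with and without both libraries numbered 5. With wild-type library 8 left out, Y-linked reads and Xist divide the genotype table just as genotype does. Effects of what lies behind that division and effects of genotype cannot be told apart there.

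In knockout microglia, 7 of the 10 genes were lower than in wild type and 1 was higher (limma, Benjamini-Hochberg adjusted p under 0.05 over 10401 genes tested). Among all genes tested, 19.8% were lower and 5.14% were higher in the knockout. The genes that fell were Lpl, Fabp3, Fabp5, Scd1, Scd2, Plin2 and Cd36, which cover uptake, binding, desaturation and droplet coating. Pnpla2, a triglyceride lipase, rose by a smaller amount, and Acsl1 and Fasn did not pass the test. The median log2 difference of the 10 genes was -3.58, against -0.45 over all genes tested. The minimum mean of 10 for testing was taken over both groups together. Fabp3, Fabp5, Scd1 and Cd36 had knockout means of 0, 2.70, 0.891 and 5.11, so they passed it through wild type alone. These genes could hardly have been called higher, and the count of lower genes and the median lean on them. Without wild-type library 8, 8 of the genes were lower, with Fasn added, and 1 was higher. In bulk RNA such as this, fewer cells of a type and less RNA per cell cannot be told apart.

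**Figure D1:**
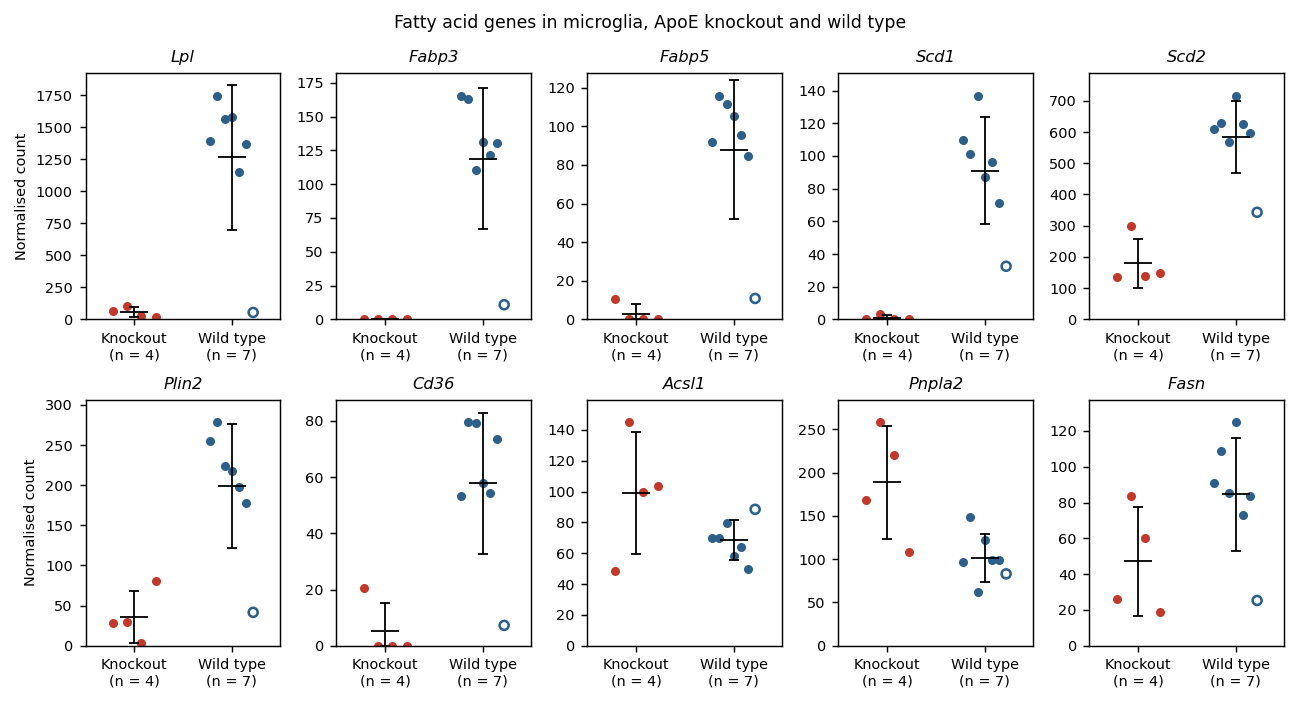
Normalised counts of the 10 genes in each knockout (red, n = 4) and wild-type (blue, n = 7) library. Bars give the mean and SD, with the lower arm stopped at 0, and the open circle is wild-type library 8. Over all wild-type libraries the groups overlap for Lpl, Plin2, Cd36, Acsl1, Pnpla2 and Fasn. Wild-type library 8 is the lowest of its group for Lpl, Fabp3, Fabp5, Scd1, Scd2, Plin2, Cd36 and Fasn. The share of all genes whose groups do not overlap was not counted.

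The background level of lower calls depended on abundance. Among genes with a mean of 10 to 50 normalised counts over the table, where Cd36 lies, 25.99% were lower and 0.683% higher in the knockout. Between 50 and 500, where 8 of the 10 genes lie, 15.0% were lower and 7.02% higher. Among genes of at least 500, where Lpl lies, 12.9% were lower and 24.8% higher.

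Lpl encodes lipoprotein lipase, the enzyme that frees fatty acids from the triglycerides of lipoproteins, and lies on the plus strand of chromosome 8 (68880491 to 68907448; GRCm38, as for all positions). Its normalised counts were 66.4, 107, 28.1 and 21.7 in the knockout libraries, against 54.2 at the lowest, 1391 at the median and 1748 at the highest in the wild-type libraries. The lowest wild-type value is that of library 8, which lies inside the knockout range, while the other 6 began at 1152 and lie far above it. The means were 55.9 ± 39.6 (SD, n = 4) in the knockout and 1265 ± 567 (SD, n = 7) in wild type. On the log2 scale Lpl fell by 4.28 with an SE of 0.80 (limma adjusted p = 0.00133). Without wild-type library 8 it fell by 4.96 (limma adjusted p = 9.64e-07).

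Cd36, on the minus strand of chromosome 5 (17781690 to 17888801), encodes a scavenger receptor that also helps long-chain fatty acids into the cell. It had 20.4 normalised counts in knockout library 1 and no read in the other 3 knockout libraries, against 7.22, 57.9 and 79.7 (lowest, median, highest) in wild type. Wild-type library 8, again the lowest, lies under knockout library 1, and the other wild-type libraries, from 53.1 up, lie above it. Cd36 fell by 4.52 (SE 0.92, limma adjusted p = 0.00259). Leaving out a library gave a log2 difference of -4.95 without wild-type library 8 and -5.62 without knockout library 1. Cd36 did not pass with edgeR's quasi-likelihood test on the recovered reads (log2 difference -3.52, adjusted p = 0.0852).

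The 2 fatty acid binding proteins of the group carry fatty acids through the cytosol. Fabp3, known from heart muscle and on the plus strand of chromosome 4 (130308595 to 130315463), had 0 reads in all 4 knockout libraries. In wild type its normalised count was 10.8 at the lowest (library 8), 131 at the median and 165 at the highest. With 3 reads over the 4 knockout libraries as the floor, the wild-type mean of Fabp3 was 340.0-fold above that floor. The floor covers counting error only, and the knockout libraries held fewer detected genes at more reads. The value is therefore not a firm lower bound on the change. The fitted difference was -6.59 (SE 0.71, limma adjusted p = 1.76e-05), and it was -7.09 with wild-type library 8 left out. Of the 251 windows of 50 bases in the last 300 bases of the Fabp3 transcript, 13 also occur in the pseudogene Fabp3-ps1, and its last 1000 bases overlap Zcchc17 on the opposite strand, so reads of these genes could be split or shared. No such window was shared with another gene for the other 9 members.

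Fabp5, on the plus strand of chromosome 3 (10012548 to 10016607), is known from skin and also from macrophages. It had 10.8 normalised counts in knockout library 1 and no read in the others, against 10.8, 95.6 and 116 (lowest, median, highest) in wild type. The lowest wild-type value was library 8, which stood just above knockout library 1, so the groups touch but do not overlap. Fabp5 fell by 5.33 (SE 0.83, limma adjusted p = 3.13e-04). Without wild-type library 8 the log2 difference was -5.77, and without knockout library 1 it was -6.22.

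Plin2, on the minus strand of chromosome 4 (86648386 to 86670060), encodes perilipin 2, a coat protein of lipid droplets whose level follows droplet content in many cells. Its normalised counts were 27.8, 29.8, 3.46 and 80.7 in the knockout libraries, against 41.5, 218 and 279 (lowest, median, highest) in wild type. Knockout library 4 lies above wild-type library 8, and all knockout libraries lie under the other wild-type libraries, which began at 178. Plin2 fell by 2.89 (SE 0.66, limma adjusted p = 0.00555). Its difference was -3.23 without wild-type library 8, -2.08 without knockout library 3 and -3.48 without knockout library 4, and the gene passed in each case.

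Scd1 and Scd2 encode stearoyl-CoA desaturases, which put a double bond into saturated fatty acids, and they lie close together on chromosome 19. Scd1, on the minus strand (44394455 to 44407879), had 3.56 normalised counts in knockout library 2 and no read in the other 3, against 32.5, 96.6 and 137 (lowest, median, highest) in wild type. The groups do not overlap, with or without wild-type library 8. Scd1 fell by 5.87 (SE 0.61, limma adjusted p = 1.30e-05), and it fell by 6.09 with wild-type library 8 left out.

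Scd2, the desaturase known as the main form of the mouse brain, lies on the plus strand (44293674 to 44306864). Its normalised counts were 135, 298, 138 and 149 in the knockout libraries, against 343, 610 and 717 (lowest, median, highest) in wild type. The groups do not overlap, and Scd2, unlike Scd1, had reads in every knockout library. Scd2 fell by 1.75 (SE 0.24, limma adjusted p = 1.06e-04), and it fell by 1.87 with wild-type library 8 left out. Its means were 180 ± 78.9 (SD, n = 4) in the knockout and 585 ± 116 (SD, n = 7) in wild type.

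Fasn, on the minus strand of chromosome 11 (120805846 to 120824547), encodes fatty acid synthase, which builds palmitate. Its normalised counts were 26.1, 83.7, 60.1 and 18.6 in the knockout libraries, against 25.3, 85.3 and 125 (lowest, median, highest) in wild type. Knockout library 2 lies inside the range of the wild-type libraries other than 8, which began at 72.9, and the other 3 lie under it. Fasn differed by -0.94 on the log2 scale (95% interval -1.98 to 0.10, limma adjusted p = 0.177). With wild-type library 8 left out the difference was -1.21 and passed (limma adjusted p = 0.0385).

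Pnpla2, on the plus strand of chromosome 7 (141455198 to 141460743), encodes adipose triglyceride lipase, which takes the first fatty acid off stored triglyceride. Its normalised counts were 169, 259, 221 and 108 in the knockout libraries, against 62.5, 99.0 and 148 (lowest, median, highest) in wild type. Knockout libraries 1, 2 and 3 lie above every wild-type library, and knockout library 4 lies among them. Pnpla2 rose by 0.86 (SE 0.28, limma adjusted p = 0.0392), and by 0.82 with wild-type library 8 left out (limma adjusted p = 0.0454). The call was lost without any one of wild-type libraries 1, 3, 6 and 7 (limma adjusted p = 0.0654, 0.0746, 0.0639 and 0.0650) or knockout libraries 1, 2 and 3 (limma adjusted p = 0.0604, 0.115 and 0.0870).

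Acsl1, on the plus strand of chromosome 8 (46471037 to 46536051), encodes a long-chain acyl-CoA synthetase that activates fatty acids. Its normalised counts were 48.2, 145, 99.4 and 103 in the knockout libraries, against 49.99, 70.0 and 88.5 (lowest, median, highest) in wild type. Knockout library 1 lies under all wild-type libraries and the other 3 lie above them. Acsl1 differed by 0.44 on the log2 scale (95% interval -0.23 to 1.117, limma adjusted p = 0.323), and by 0.51 with wild-type library 8 left out.

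All 10 genes had reads in each wild-type library. In the knockout, 8 of the 10 had reads in library 1, 7 in library 2, and 6 in each of libraries 3 and 4. Knockout libraries were the deeper ones by reads, while they held fewer detected genes. Mitochondrial ribosomal RNA took 0.647 to 0.886% of the reads in the knockout libraries, against 1.36 to 1.59% in 6 wild-type libraries and 4.67% in wild-type library 8, and its part in the differences was not tested. Differences are on the log2(normalised count + 1) scale, which understates the change where a group is at 0 throughout, as for Fabp3. For Fabp5, Scd1 and Cd36, with reads in 1 knockout library each, the size of the difference depends on the offset of 1.

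**Figure D2:**
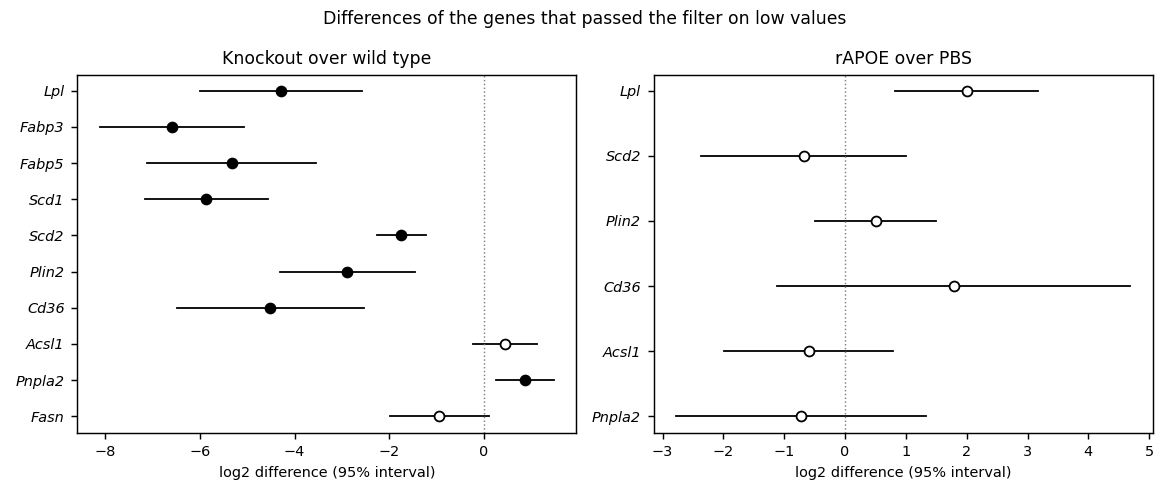
Log2 differences with 95% intervals, on the left knockout over wild type for 10 genes, on the right rAPOE over PBS for the 6 genes tested. Filled points passed at an adjusted p under 0.05. On the left 7 filled points lie under 0 and 1 above it, and on the right no point is filled.

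Promoter sequences are shown for 3 of the genes that fell and for the one that rose, to set the starts of genes that moved together beside each other. They cover 300 bases around a RefSeq transcription start (GRCm38.p6), most of them upstream, 5′ to 3′ on the strand of the gene, and 6 of the 10 genes matched the RefSeq table. Both strands were searched for the CCAAT box (CCAAT), the GC box bound by Sp factors (GGGCGG), the E-box of USF and ChREBP factors (CACGTG), the sterol response element read by SREBP factors (TCACNCCAC) and the direct repeat of AGGTCA with 1 base between, read by PPAR and RXR. Matches are in capitals, overlapping matches joined. The Plin2 promoter lies at chr4:86670010-86670309, minus strand, the Fabp3 promoter at chr4:130308488-130308787, plus strand, the Cd36 promoter at chr5:17835847-17836146, minus strand, and the Pnpla2 promoter at chr7:141454938-141455237, plus strand.
Plin2: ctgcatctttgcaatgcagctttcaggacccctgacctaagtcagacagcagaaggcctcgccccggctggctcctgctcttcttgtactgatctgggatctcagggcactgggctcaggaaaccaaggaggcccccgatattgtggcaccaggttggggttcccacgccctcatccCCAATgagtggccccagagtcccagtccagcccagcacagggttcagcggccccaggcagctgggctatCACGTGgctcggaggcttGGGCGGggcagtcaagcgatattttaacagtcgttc
Fabp3: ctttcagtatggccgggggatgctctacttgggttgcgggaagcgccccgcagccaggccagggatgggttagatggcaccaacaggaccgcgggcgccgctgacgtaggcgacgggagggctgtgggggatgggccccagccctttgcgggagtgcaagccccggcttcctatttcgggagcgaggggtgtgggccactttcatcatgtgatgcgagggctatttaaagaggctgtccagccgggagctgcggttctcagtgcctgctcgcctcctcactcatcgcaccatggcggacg
Cd36: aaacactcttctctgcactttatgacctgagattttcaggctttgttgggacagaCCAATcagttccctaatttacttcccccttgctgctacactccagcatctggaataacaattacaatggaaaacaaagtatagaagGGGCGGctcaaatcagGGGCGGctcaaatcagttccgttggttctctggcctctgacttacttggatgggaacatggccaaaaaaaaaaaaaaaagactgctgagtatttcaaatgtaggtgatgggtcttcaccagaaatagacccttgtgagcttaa
Pnpla2: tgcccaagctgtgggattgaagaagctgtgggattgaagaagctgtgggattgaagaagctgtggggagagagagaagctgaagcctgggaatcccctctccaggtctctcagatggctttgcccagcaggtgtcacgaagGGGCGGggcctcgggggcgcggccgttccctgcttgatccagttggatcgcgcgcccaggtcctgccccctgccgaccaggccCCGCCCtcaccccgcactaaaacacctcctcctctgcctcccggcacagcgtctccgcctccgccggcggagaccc

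The Plin2 sequence holds 1 CCAAT box, 1 E-box and 1 GC box. The Cd36 sequence holds 1 CCAAT box and 2 GC boxes, and it begins inside the annotated gene body, so it is one of several starts of that gene. The Pnpla2 sequence holds 2 GC boxes, and in the Fabp3 sequence none of these motifs matched. Of all 32851 RefSeq mouse promoters of this length, 37.4% hold a CCAAT box, 35.7% a GC box, 7.15% the E-box, 1.24% the sterol element and 0.0396% the direct repeat. A match is a run of letters in this window and was not tested for binding.

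Other genes of fatty acid handling were taken from 7 lists with 124 genes in all, none of them among the 10. Of these, 91 were tested in the genotype table, 26 were lower and 5 were higher in the knockout, with a median log2 difference of -0.63. Over all genes 2061 of 10401 (19.8%) were lower and 535 (5.14%) higher. Quantile normalisation put the median of all genes at 0.09 in place of -0.45, and under it 14 of the 91 were lower and 4 higher, against 1027 lower and 920 higher of all 10401. Without wild-type library 8, 33 of 92 were lower and 6 higher, against 2378 lower and 791 higher of all 10352. Among the genes named below, library 8 lay within the knockout range for Fabp4, Dbi, Fabp7, Got2, Agpat4, Plin3, Dgat2, Cpt1a and Srebf2. The members of each list named below are those that passed with the smallest adjusted p, at most 4 a list. Among them Fabp4, Acsl6, Acot1, Acacb and Cpt1c were at 0 in the knockout. They passed the minimum mean through wild type alone and could not be called higher. Acot2, Me1, Elovl7, Acaca, Ppargc1a, Insig1, Dgat2, Fabp7, Agpat4 and Acsl3 had knockout means of 0.779 to 9.95, also under the minimum of 10. These too passed it through wild type and could hardly have been called higher. The counts of lower genes and the medians of the lists lean on such genes.

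In the uptake and binding list, 4 of 7 tested genes were lower, with a median of -1.47. Fabp4, the binding protein of fat cells and macrophages, had 0 reads in the knockout, against 44.2 ± 20.3 normalised counts in wild type (SD, n = 7), where library 8 also had 0. Dbi, the acyl-CoA binding protein, averaged 255 ± 79.6 in the knockout (SD, n = 4) and 983 ± 329 in wild type (SD, n = 7), a log2 difference of -1.86 (limma adjusted p = 0.00203). Fabp7, the brain-type binding protein, fell by 4.05 (adjusted p = 0.00300 with limma), with reads in 1 knockout library, and did not pass with edgeR or DESeq2 on the recovered reads. Got2, a mitochondrial aminotransferase also known as a fatty acid binding protein of the plasma membrane, fell by 1.47 (adjusted p = 0.00991 with limma).

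Among the enzymes that make or split acyl-CoA, 6 of 10 tested genes were lower and 1 was higher, with a median of -3.13. The synthetase Acsl6 and the thioesterase Acot1 had 0 reads in the knockout, against 36.2 ± 16.1 and 27.0 ± 8.57 normalised counts in wild type (SD, n = 7). Acsl3, a synthetase found on lipid droplets, averaged 9.95 ± 14.5 in the knockout (SD, n = 4) and 78.8 ± 11.8 in wild type (SD, n = 7), a log2 difference of -4.22 (limma adjusted p = 0.00187) that did not pass with edgeR. The thioesterase Acot2 fell by 3.60 (limma adjusted p = 8.87e-04). Under quantile normalisation 3 of the list were lower and Acot2 was not among those that passed. The median of the list was -0.43 there and -1.22 with an offset of 10. With a minimum mean of 50 it was -0.49 over the 4 genes left, 1 of them lower and 1 higher. The higher gene, named after its values were seen, was Acsl4, a synthetase that prefers arachidonate, with a log2 difference of 0.44 (limma adjusted p = 0.0454). The count of higher genes in this list was 0 without any single library other than knockout library 4 or wild-type library 8.

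In the storage list 3 of 15 tested genes were lower and 1 was higher, a share near the 19.8% and 5.14% of all genes, and its median of -0.46 was close to their -0.45. Agpat4, an acyltransferase of phospholipid and triglyceride synthesis, averaged 8.68 ± 17.4 in the knockout (SD, n = 4) and 76.8 ± 22.8 in wild type (SD, n = 7), a log2 difference of -4.92 (limma adjusted p = 9.96e-04) that did not pass with edgeR. The droplet coat protein Plin3 and Dgat2, which makes triglyceride, had log2 differences of -2.70 and -2.34 (limma adjusted p = 0.0364 and 0.0366), and Agpat3 rose by 0.56 (limma adjusted p = 0.0300). These 3 calls were not firm. Plin3 lost its call without any one of wild-type libraries 1, 2, 3, 4, 6 and 7 or knockout libraries 1, 3 and 4 (limma adjusted p = 0.0501 to 0.0745). Dgat2 lost it without wild-type library 3, 4, 6 or 7 or knockout library 1 or 3 (limma adjusted p = 0.0614 to 0.103), and its log2 difference was 0.28 under quantile normalisation. Agpat3 lost it without wild-type library 1, 3, 4, 6 or 7 or knockout library 1, 2 or 3 (limma adjusted p = 0.0516 to 0.0768). With edgeR or DESeq2 on the recovered reads, 0 genes of the list were lower, against 1201 and 1613 of 10401 over all genes.

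In the lipolysis list, 0 of 8 tested genes were lower (4 of the 8 had an unadjusted p under 0.05 in either direction, against 3794 of 10401 over all genes; 0 lower with edgeR and with DESeq2) and 2 were higher. Lipa, the acid lipase of lysosomes, averaged 293 ± 59.0 in the knockout (SD, n = 4) and 175 ± 25.8 in wild type (SD, n = 7), a log2 difference of 0.73 (limma adjusted p = 0.0106). Daglb, a diacylglycerol lipase, averaged 567 ± 73.7 in the knockout (SD, n = 4) and 331 ± 59.8 in wild type (SD, n = 7), a log2 difference of 0.78 (limma adjusted p = 0.00310). The median of the list was -1.16, on the other side of 0 from both genes that passed, but it depended on the setting. It was 0.13 over 5 genes with a minimum mean of 50 and 6.5e-05 under quantile normalisation. With edgeR and with DESeq2 it was -0.30, and without knockout library 3 it was -0.13. Without wild-type library 8, 1 gene of the list was lower, against 2378 of 10352 over all genes. Without knockout library 1, 2 were, against 2116 of 10475.

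Of the synthesis, elongation and desaturation list, 6 of 15 tested genes were lower, with a median of -0.54. Without wild-type library 8, 10 of 16 tested were lower, against 2378 of 10352 over all genes. Elovl7, an elongase of long-chain acids, averaged 3.45 ± 6.90 normalised counts in the knockout (SD, n = 4) and 146 ± 24.0 in wild type (SD, n = 7), a log2 difference of -6.21 (limma adjusted p = 1.93e-05). Acaca and Acacb encode the acetyl-CoA carboxylases, the first of which makes the building block for Fasn. Acaca fell by 4.72 (limma adjusted p = 6.67e-04), and Acacb had 0 reads in the knockout, against 23.2 ± 9.25 in wild type (SD, n = 7). Me1, malic enzyme, which supplies NADPH, fell by 5.11 (limma adjusted p = 4.25e-05). Under quantile normalisation 3 of the list were lower and Acacb did not pass.

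Of the oxidation list, 4 of 24 tested genes were lower, no larger a share than the 19.8% of all genes, with a median of -0.64. Without knockout library 3, 9 of the 24 were lower, against 2046 of 10492 over all genes. Etfb, a subunit of the electron transfer flavoprotein, averaged 74.4 ± 21.6 in the knockout (SD, n = 4) and 284 ± 91.8 in wild type (SD, n = 7), a log2 difference of -1.90 (limma adjusted p = 1.62e-04). Acaa2, the mitochondrial thiolase, fell by 1.94 (limma adjusted p = 0.00498). Cpt1c, a carnitine palmitoyltransferase known from neurons, had 0 reads in the knockout, against 20.2 ± 11.3 in wild type (SD, n = 7), and did not pass under quantile normalisation. Cpt1a, the enzyme that commits fatty acids to mitochondria, fell by 0.85 (limma adjusted p = 0.0366). The Cpt1a call was lost without any one of wild-type libraries 1, 2, 3, 4, 6 and 7 or knockout library 2 (limma adjusted p = 0.0566 to 0.0980), and with edgeR or quantile normalisation.

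In the list of transcriptional regulators, 3 of 12 tested genes were lower and 1 was higher, with a median of -0.18. Srebf2, the sterol-sensing factor best known for cholesterol genes, averaged 17.7 ± 19.8 in the knockout (SD, n = 4) and 111 ± 34.8 in wild type (SD, n = 7), a log2 difference of -3.53 (limma adjusted p = 0.00511). Insig1, which holds sterol-sensing factors in the endoplasmic reticulum, fell by 3.28 (limma adjusted p = 0.00300), and Ppargc1a, a coactivator of oxidative genes, fell by 3.69 (limma adjusted p = 0.00371), but neither passed under quantile normalisation, nor Ppargc1a with edgeR. Rxrb, a partner of PPAR and LXR receptors, rose by 0.84 (limma adjusted p = 0.0272), and the call was lost without knockout library 1 (limma adjusted p = 0.0768).

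**Figure D3:**
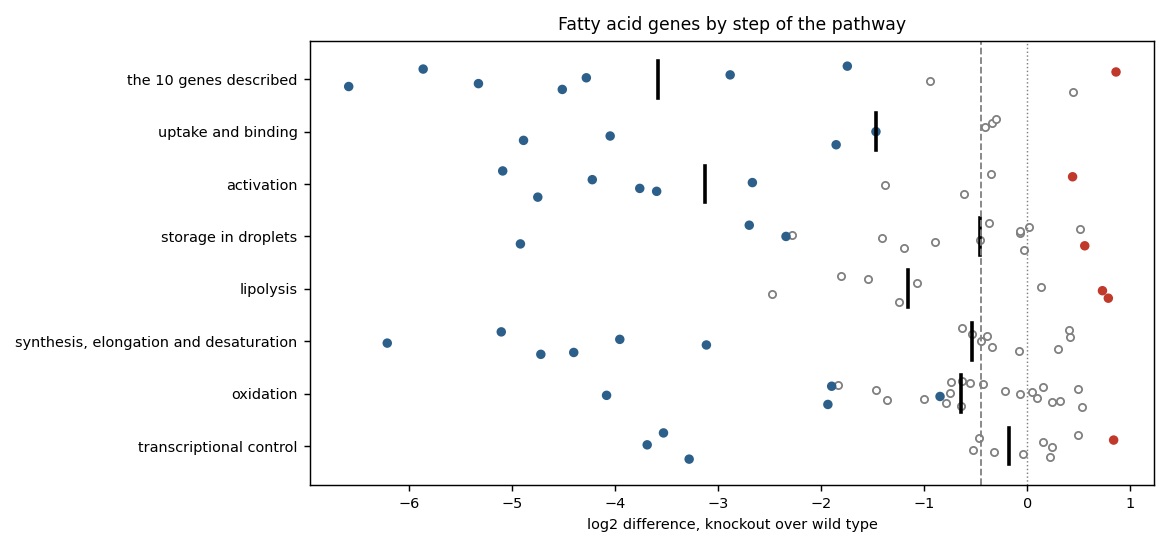
Log2 differences of knockout over wild type for the 10 genes and for the tested genes of 7 other lists. Blue points passed and were lower, red points passed and were higher, open points did not pass, bars are list medians and the dashed line is the median of all genes, -0.45. In this main test the 10 genes and the activation list have the medians farthest to the left, -3.58 and -3.13. Under quantile normalisation these medians were -2.30 and -0.43.

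Markers of other cell types moved with the genotype in the same libraries, and their part in the results above was not tested. Summed monocyte and serosal macrophage markers came to 648 to 880 normalised counts in the knockout libraries, against 7181 to 9335 in 6 wild-type libraries and 278 in wild-type library 8. Of the 11 tested, 8 were lower in the knockout, and S100a4, Alox15, Plac8 and Vcan were at 0 in all knockout libraries. Choroid plexus and ependyma markers came to 438 to 896 in the knockout, against 57815 to 84076 in 6 wild-type libraries and 23940 in wild-type library 8, all 9 lower, with Folr1, Sostdc1 and Foxj1 at 0 in the knockout. Wild-type library 8 was thus low for the monocyte markers and for most of the 10 genes, and lay between the groups for the choroid plexus markers. The low level was not particular to monocyte markers. Library 8 also lay under the 6 other wild-type libraries for the neutrophil, neuron, astrocyte, oligodendrocyte, endothelial and border macrophage markers given below. For microglia markers it lay above them.

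Neuron markers came to 0 to 101 in the knockout, against 985 to 1265 in 6 wild-type libraries and 93.9 in wild-type library 8, which is the remaining one throughout, with 7 of 8 tested lower and Map2, Rbfox3 and Syp at 0 in the knockout. Astrocyte markers came to 610 to 1044 in the knockout, against 2150 to 2374 in 6 wild-type libraries and 1397 in the remaining one, with 7 of 8 tested lower and Gfap at 0 in the knockout. Oligodendrocyte markers came to 92.5 to 282 in the knockout, against 567 to 665 in 6 wild-type libraries and 200 in the remaining one, with 3 of 6 tested lower and Mog, Mobp, Olig1 and Pdgfra at 0 in the knockout. Knockout sums lie under those of the 6 wild-type libraries for these 3 lists, and for neurons and oligodendrocytes they overlap wild-type library 8.

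Endothelial markers came to 985 to 1204 in the knockout, against 2070 to 2450 in 6 wild-type libraries and 1296 in the remaining one, with 3 of 8 tested lower. Border macrophage markers came to 165 to 268 in the knockout, against 716 to 866 in 6 wild-type libraries and 267 in the remaining one, with 2 of 7 tested lower. Neutrophil markers came to 1575 to 6172 in the knockout, against 2026 to 2690 in 6 wild-type libraries and 179 in the remaining one. Of the 6 tested, 0 were higher and 0 lower, with a median log2 difference of 0.97. The labelled cell type was present throughout. Microglia markers came to 68443 to 80855 in the knockout, against 50000 to 53413 in 6 wild-type libraries and 68801 in the remaining one, with 6 of 10 higher.

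**Figure D4:**
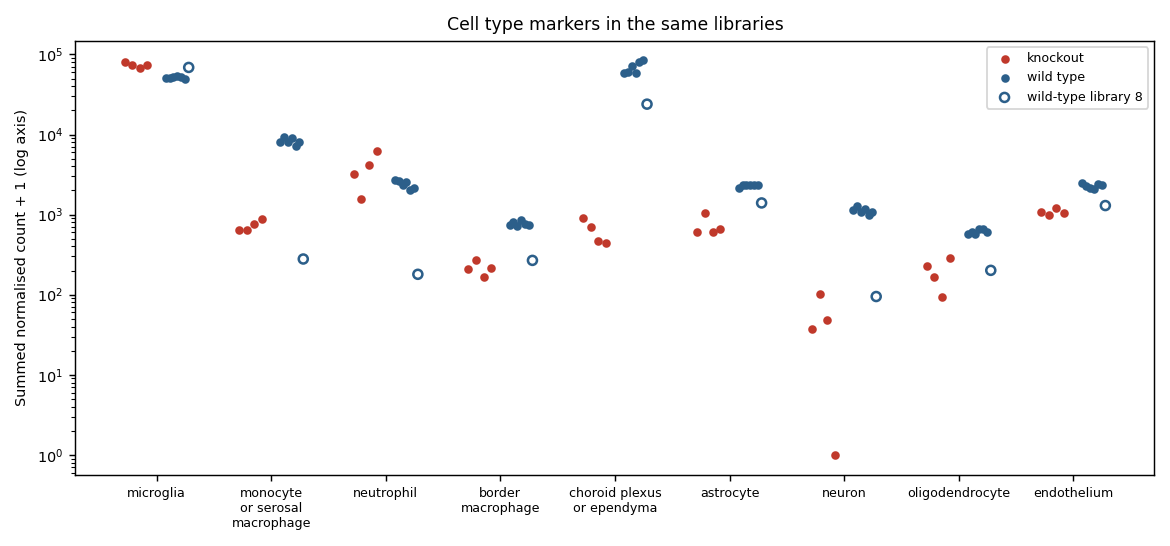
Summed normalised counts of cell type markers, plus 1, on a log axis, in each knockout library (red) and each wild-type library (blue, with library 8 as the open circle). Microglia markers are highest in the knockout libraries and wild-type library 8, and monocyte markers are at 648 to 880 in the knockout, 7181 to 9335 in 6 wild-type libraries and 278 in wild-type library 8.

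Injection of rAPOE into knockout brains was compared with PBS to ask what the protein does to microglia that lack it. None of the 6 genes tested passed in either direction (0 with limma, 1 gene with an unadjusted p under 0.05; 0 with edgeR, 1 with DESeq2 on the recovered reads). Among all 7066 genes tested, 0.368% were higher and 0.113% were lower with limma. Lpl was the gene that passed with DESeq2, which gave no adjusted p for Cd36, Acsl1 and Pnpla2. The median log2 difference of the 6 genes was -0.05, against -0.01 over all genes tested.

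The normalised counts of Lpl were 66.0, 219, 77.3, 378 and 459 in rAPOE libraries 1 to 5, against 21.5, 17.7, 49.6, 121 and 75.3 in PBS libraries 1 to 5. The groups overlap, since rAPOE libraries 1 and 3 lie under PBS library 4, and 3 rAPOE libraries lie above all PBS libraries. The means were 240 ± 176 with rAPOE and 57.1 ± 42.8 with PBS (SD, n = 5 each). With limma the difference was 1.997 on the log2 scale (SE 0.57, 95% interval 0.82 to 3.18, limma adjusted p = 0.149), and 1.85 without both libraries numbered 5 (limma adjusted p = 0.398). With DESeq2 on the recovered reads the adjusted p was 0.0131, with edgeR's quasi-likelihood test it was 0.163, and with an offset of 10 in place of 1 the limma adjusted p was 0.0323.

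Libraries 4 and 5 of both injected groups held more detected genes, 11342 and 11026 with rAPOE and 11232 and 10025 with PBS, than the other libraries, with 7691 to 8727 with rAPOE and 7601 to 8837 with PBS. Lpl was highest in libraries 4 and 5 in each group, with 378 and 459 for rAPOE and 121 and 75.3 for PBS. Libraries 4 and 5 were set apart in this way after the values were seen, and no test was run within this subdivision. Over all libraries the Lpl values of the groups overlap. Summed monocyte and serosal macrophage markers were 94.3 to 779 with rAPOE and 19.0 to 373 with PBS, with 1 of 3 tested higher, and Ly6c2 and Vcan at 0 in all PBS libraries. Microglia markers were 10848 to 23047 with rAPOE and 21072 to 25276 with PBS, with 3 of 10 lower. Choroid plexus and ependyma markers were 168 and 512 in rAPOE libraries 4 and 5, and 133 and 267 in PBS libraries 4 and 5. In the other libraries they were 0 to 56.5 with rAPOE and 0.827 to 75.9 with PBS. Of these 9 markers 2 were measured, and 0 were called higher or lower. The part of these marker lists in the Lpl values was not tested.

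**Figure D5:**
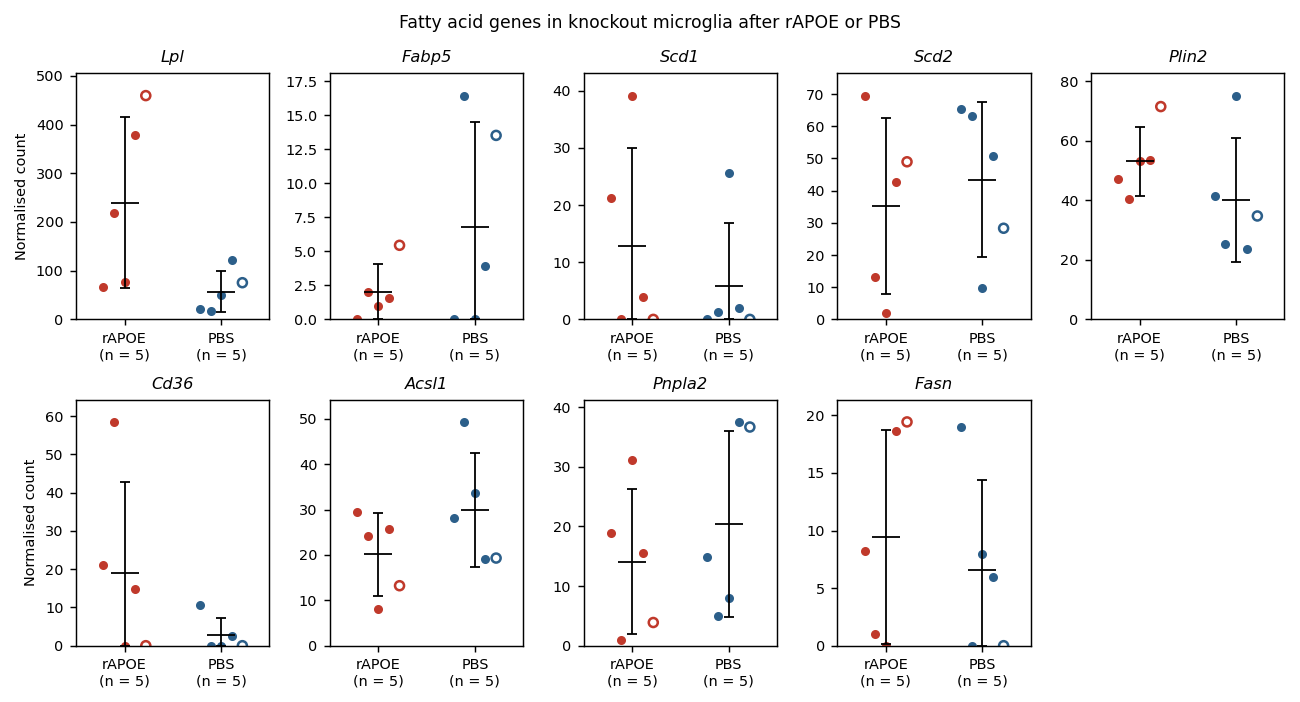
Normalised counts of 9 genes in each rAPOE (red) and PBS (blue) library, 5 a group, with mean and SD, the lower arm stopped at 0. Open circles are the libraries numbered 5. For Lpl, 3 rAPOE libraries lie above all PBS libraries, and in the other panels the groups overlap.

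Cd36 had normalised counts of 21.2, 58.5, 0, 14.7 and 0 in rAPOE libraries 1 to 5, against 10.8, 0, 0, 2.63 and 0 in PBS libraries 1 to 5. Both groups hold libraries without a read, and the 3 highest values are in the rAPOE group. For Cd36 the log2 difference was 1.79, with a 95% interval of -1.11 to 4.68, and 2.23 without both libraries numbered 5. A fall and a large rise both lie inside the interval.

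Plin2 had normalised counts of 47.1, 40.4, 53.2, 53.5 and 71.5 in rAPOE libraries 1 to 5, against 41.4, 25.3, 75.2, 23.7 and 34.7 in PBS libraries 1 to 5. The highest value was in a PBS library, and the rAPOE libraries lay closer together. The log2 difference was 0.50 (95% interval -0.50 to 1.499), and 0.37 without both libraries numbered 5.

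Acsl1 had normalised counts of 29.5, 24.2, 8.03, 25.6 and 13.2 in rAPOE libraries 1 to 5, against 28.1, 49.3, 33.6, 19.1 and 19.3 in PBS libraries 1 to 5. The log2 difference was -0.60 (95% interval -1.98 to 0.79) and -0.62 without both libraries numbered 5, and the groups overlap. Pnpla2 had normalised counts of 18.9, 1.01, 31.1, 15.5 and 3.89 with rAPOE, against 14.9, 5.06, 7.999, 37.5 and 36.7 with PBS. For Pnpla2 the libraries spread over a wide range in both groups, and the log2 difference was -0.72 (95% interval -2.77 to 1.33) and -0.16 without both libraries numbered 5.

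Scd2 had normalised counts of 69.5, 13.1, 2.01, 42.7 and 49.0 in rAPOE libraries 1 to 5, against 65.4, 63.2, 9.60, 50.7 and 28.3 in PBS libraries 1 to 5. Library 3 was the lowest of each group. The log2 difference was -0.68 (95% interval -2.36 to 1.004), with -1.04 without both libraries numbered 5 and 0.06 without rAPOE library 3.

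Fabp5, Scd1 and Fasn were under the minimum mean of 10 in the injection table, and so were not tested. Fabp5 was at 0 to 5.44 with rAPOE, with reads in 4 of 5 libraries, and at 0 to 16.4 with PBS, with reads in 3 of 5. Scd1 was at 0 to 39.1 with rAPOE and at 0 to 25.6 with PBS, with reads in 3 of 5 libraries of each group. Fasn was at 0 to 19.4 with rAPOE, with reads in 4 of 5 libraries, and at 0 to 19.0 with PBS, with reads in 3 of 5. The ranges of the 2 groups overlap for all 3 genes.

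Of the 124 genes of the 7 other lists, 59 were tested in the injection table. With limma, edgeR or DESeq2, 0 passed, where any gene that DESeq2 left without an adjusted p counted as not passed. With limma 6 of the 59 had an unadjusted p under 0.05, against 792 of 7066 over all genes. The median log2 difference was 0.43 over 3 uptake and binding genes, 0.41 over 10 storage genes and 0.10 over 7 synthesis genes. It was -0.24 over 5 activation genes, -0.17 over 6 lipolysis genes, -0.21 over 20 oxidation genes and -0.78 over 8 regulators. Over all genes tested it was -0.01.

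The 2 comparisons share no library, and their levels cannot be set against each other, since each table was normalised apart. Side by side, the log2 difference of Lpl was -4.28 for knockout over wild type and 1.997 for rAPOE over PBS. For Cd36 these differences were -4.52 and 1.79, for Plin2 -2.89 and 0.50, and for Scd2 -1.75 and -0.68. For Pnpla2 they were 0.86 and -0.72, and for Acsl1 0.44 and -0.60. Of these, the values for rAPOE over PBS missed the adjusted threshold for all 6 genes with limma.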

How the data were processed

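Microglial RNA of 21 libraries was made into QuantSeq 3′ FWD libraries and read on a MiniSeq, per the labels' protocols. The submitters' processing notes name the build GRCm38.p3 and the tools Picard 1.8.4, HTSeq, R 3.2.3 and DESeq2, without their roles. For the aligner, gene annotation and strand setting, nothing is given in the sources used here. The authors deposited 2 tables of a signal per gene, the normalised count, and each table was analysed apart. All values above 0 (100%, within 0.01) were whole multiples of a step per library, which gave back the read counts used by edgeR and DESeq2. Of 18221 entries of the genotype table, 22 named as dates (0.0966% of the summed values) and 120 at 0 throughout were left out.

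Genes with a mean of at least 10 were tested with limma 3.58.1 (R 4.3.3, eBayes with a trend) on log2(normalised count + 1), with Benjamini-Hochberg adjusted p under 0.05 over all genes tested. Alternatives were edgeR 4.0.16 (quasi-likelihood), DESeq2 1.42.0, other offsets, filters and scalings, a replicate block, and leaving out libraries. Scripts were tested on simulated data. Genes named from each list are up to 4 that passed with the smallest adjusted p. The members and lists were chosen with earlier results of these data known. Positions are from GENCODE M21, promoters from RefSeq (GRCm38.p6). Reads carry no molecular identifiers, so the floor of 3 reads covers counting error only.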

Additional observations from a re-analysis of the deposited data

Results flagged for a closer look

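Of 31 sets of values of a gene in a group that were examined, 11 held a library far from the others of its group. Chance gives about 1 in 20 where values vary freely, which does not hold for 3 of the 11, in which the other libraries are all at 0. Another 7 concern a single library, wild-type library 8, and are not independent. This library was far under the other wild-type libraries. It had 54.2 normalised counts of Lpl, against 1152 to 1748 in the others, 10.8 of Fabp3 (others 111 to 165) and 10.8 of Fabp5 (others 84.7 to 116). It had 343 of Scd2 (others 569 to 717), 41.5 of Plin2 (others 178 to 279), 7.22 of Cd36 (others 53.1 to 79.7) and 25.3 of Fasn (others 72.9 to 125). Acsl1, Pnpla2 and Scd1 of this library were not far from the other values by this measure, at 88.5, 83.0 and 32.5. Knockout library 1 had reads of Fabp5 (10.8 normalised counts) and of Cd36 (20.4), while the other knockout libraries had none. Knockout library 2 had 3.56 of Scd1, against 0 in the others, and 298 of Scd2, against 135 to 149 in the others. No cause of these gaps was tested.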

How the results depend on the processing

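Of the 10 genes, 6 to 8 were lower in the knockout over the 20 alternatives, with 6 where a minimum mean of 50 left Cd36 untested and with edgeR, and 8 without wild-type library 8. The count of genes that were higher was 0 with no filter on low values and 0 under the replicate block, and 0 to 1 with 1 library left out. With rAPOE, 1 gene, Lpl, was higher with an offset of 10, with DESeq2 and under the replicate block (limma adjusted p = 0.0327 there), and 0 under the other alternatives. Deviations of same-numbered libraries had r = -0.029 to 0.020 in the genotype table and -0.004 to 0.185 in the injection table, above 0.1 there for numbers 4 (0.185) and 5 (0.112) alone, so the numbers were not taken to pair the libraries. The block gave 374 genes higher and 1449 lower in the knockout and 35 higher and 17 lower with rAPOE, and it ended the calls of Pnpla2 and Lipa, among others. Over all genes in the knockout, quantile normalisation gave 920 higher and 1027 lower, against 535 and 2061 in the main test, and edgeR gave 470 and 1201. Without filter, 478 were higher and 3191 lower, and with a minimum mean of 50, 488 and 801. With rAPOE, 26 genes were higher and 8 lower in the main test, 55 and 23 with an offset of 10, 64 and 46 with DESeq2, and 10 and 1 without both libraries numbered 5. Of the named genes of other lists, Dgat2 had a log2 difference of 0.28 under quantile normalisation, against -2.34, and the cause was not tested. Calls of Fabp7, Acsl3, Agpat4, Ppargc1a, Plin3, Dgat2 and Cpt1a were lost with edgeR. In the injection table, 3 of the 9 genes were under the minimum mean and were not tested.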
